A study of Mus musculus with 6 samples.

Results

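The 10 genes of the prostaglandin system described here were measured in total kidney RNA from a mouse model of polycystic kidney disease. They were *Ptgs1*, *Ptgs2*, *Ptges*, *Ptgds*, *Hpgd*, *Slco2a1*, *Ptger1*, *Ptger2*, *Ptger3* and *Ptger4*. Members were found by gene symbol in a deposited table of transcripts, and all 10 of the 10 symbols were present, among 23276 gene symbols in all. They were listed in 19 entries, each standing for 1 transcript, of which 11 carried a RefSeq mRNA identifier and 8 had been assembled from the reads. The whole table held 54721 entries.

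Kidneys came from 6 mice labelled as 22 days old, while the study's text gives a slightly younger age. All 6 carried KspCre, a Cre recombinase driven in kidney tubule cells, together with *Pkd1* F/RC, which is 1 floxed and 1 hypomorphic RC allele of *Pkd1*. In the 3 SKO mice that was the whole genotype, and the 3 DKO mice were in addition homozygous for a floxed miR17~92 cluster (miR17~92 F/F). There was no control without KspCre and *Pkd1* F/RC among these 6 samples. KspCre is known to act in tubule epithelium, so total kidney RNA also holds transcripts of vessels, interstitium and glomeruli that are not its target.

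The table gives 1 mean level for each transcript over both groups and no value for a single kidney. Its remaining columns hold the authors' own comparison of DKO with SKO and were not used. The levels are therefore those of SKO and DKO kidneys taken as one, without a spread between animals, and the difference between the genotypes was not analysed here. Whether neighbouring levels differ beyond the variation between animals cannot be told, so every order given is that of the means. The engineered loci could not be checked against the labels for the same reason. Their mean levels were 31.8 CPM (reads of an entry scaled to a fixed total over all entries) for *Pkd1* and 4.21 CPM for *Mir17hg*, the host transcript of the cluster.

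Defining kidney markers were abundant, with *Slc34a1* of the proximal tubule at 1030.0 CPM, *Umod* of the thick ascending limb at 1022.0 CPM and *Aqp2* of collecting duct principal cells at 77.7 CPM. *Pdgfra* of interstitial fibroblasts lay at 52.5 CPM, *Pecam1* of endothelium at 52.7 CPM and *Csf1r* of macrophages at 25.3 CPM. Other macrophage markers were lower, with *Cd68* at 5.19 CPM and *Emr1* at 4.49 CPM. The skeletal muscle marker *Ckm* lay at 0.0573 CPM. The liver markers *Fgb* and *Apoa2* lay at 4.83 and 1.34 CPM, so both passed the level of 1 CPM used below to count a gene as present. In RNA from whole kidney, fewer cells of a type and less RNA per cell cannot be told apart.

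Prostaglandins are lipid signals that act close to the cell that makes them. Phospholipases free arachidonic acid from membranes, cyclooxygenases turn it into an unstable intermediate, and terminal synthases convert that into prostaglandin E2, D2, F2α, prostacyclin or thromboxane. Prostaglandin E2 is a major product of the kidney, where it acts on salt and water transport, renin release and blood flow through 4 E-type receptors. EP2 and EP4 raise cyclic AMP, EP3 mostly lowers it, and EP1 acts through calcium. Cyclic AMP is a known driver of fluid secretion and proliferation in cystic epithelium.

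The cluster targeted in the DKO genotype encodes 6 miRNAs that fall into 4 seed families. Their mature sequences are shown because the seed, bases 2 to 8 in capitals, is the part used below to search the 3′-UTRs of the 10 genes. Sequences and positions are from RefSeq (GRCm38.p6), all on the forward strand of chromosome 14. The mature strand of miR-17-5p runs from 115043684 to 115043706 and that of miR-92a-3p from 115044476 to 115044496. 
miR-17-5p: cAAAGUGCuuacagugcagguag
miR-20a-5p: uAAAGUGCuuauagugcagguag
miR-18a-5p: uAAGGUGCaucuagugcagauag
miR-19a-3p: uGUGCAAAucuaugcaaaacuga
miR-19b-3p: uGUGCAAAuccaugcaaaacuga
miR-92a-3p: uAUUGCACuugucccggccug

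Of the 10 genes, 9 had a mean of at least 1 CPM, and *Ptger2* was the exception. Among all gene symbols 55.9% reached that level. With each gene represented by its entry of highest level, the members ranged from 0.138 CPM for *Ptger2* to 36.4 CPM for *Ptger3*. Their median was 13.4 CPM, beside 2.37 CPM over all genes and 12.6 CPM over the 13001 genes with at least 1 CPM.

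Entries of 1 gene were not independent. Of 8470 genes with at least 1 CPM and more than 1 entry, 4192 (49.5%) had 2 highest entries within 1% of each other. *Ptgds* shows this plainly, with 7.901 CPM for its RefSeq entry and 7.900 CPM for its assembled entry. Levels of entries were accordingly not added up, and a gene with several entries is described by each of them. All entries of the table together summed to 1007270 CPM. The scale is thus one over entries and may differ from CPM with reads counted once per gene.

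**Figure D1:**
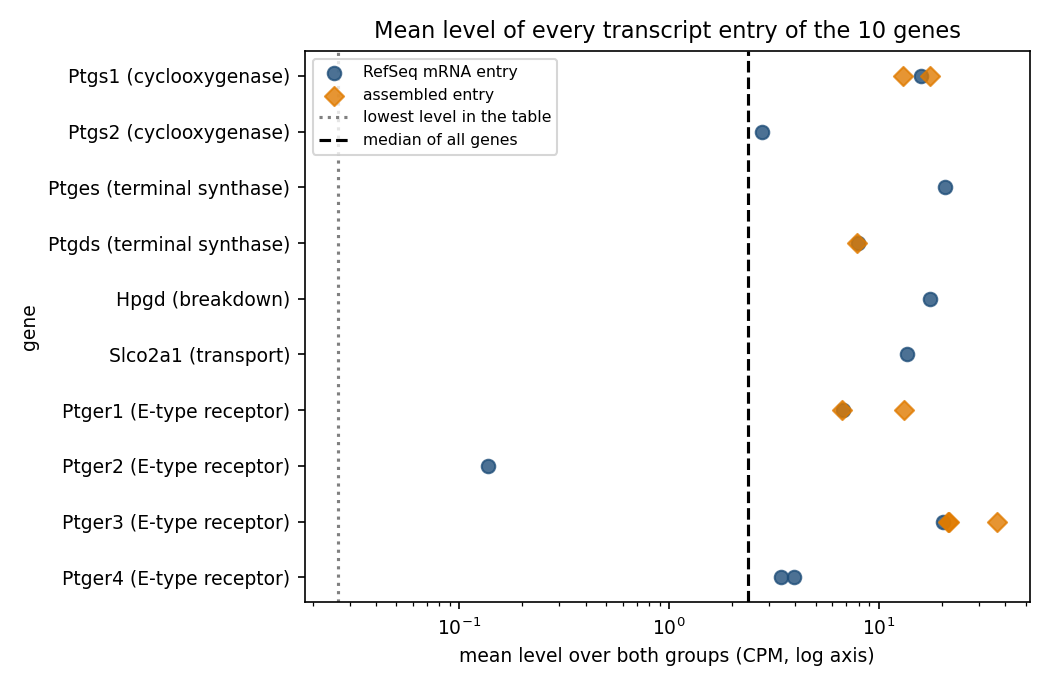
Mean level over both groups of every transcript entry of the 10 genes, in CPM on a logarithmic axis. Circles are RefSeq mRNA entries, diamonds are entries assembled from the reads, the dotted line is the lowest level in the table (0.0263 CPM) and the dashed line is the median of all genes (2.37 CPM). *Ptger2* is the only gene whose entries all lie left of the dashed line, and the entries of *Ptger3* and *Ptger1* are spread most widely.

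The cyclooxygenases catalyse the committed step, and the constitutive form was the more abundant of the pair. *Ptgs1* (COX-1; chromosome 2, 36230426 to 36252272, forward strand of mm10) had 3 entries, at 17.5 and 13.0 CPM for the assembled transcripts and 15.9 CPM for the RefSeq transcript of 11 exons. *Ptgs2* (COX-2; chromosome 1, 150100031 to 150108227, forward strand), the inducible form, had a single entry at 2.78 CPM. Levels of different genes can be compared only per length, since a longer transcript collects more reads. Per kilobase of the RefSeq transcript, *Ptgs1* lay at 5.53 and *Ptgs2* at 0.623 CPM per kb, a ratio of 8.87. On that scale *Ptgs1* exceeded 75.9% and *Ptgs2* 41.7% of the 20212 genes with a RefSeq mRNA entry and a length.

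Both terminal synthases were well detected. *Ptges* (chromosome 2, 30889471 to 30929863, reverse strand) encodes the inducible microsomal synthase of prostaglandin E2 and had 20.6 CPM in its single entry, the second highest level of the 10 genes. *Ptgds* (chromosome 2, 25466709 to 25470046, reverse strand), the lipocalin-type prostaglandin D synthase, had 7.90 CPM. Because its transcript is short, 901 nt against 3647 nt for *Ptges*, the order was reversed per kilobase of the RefSeq transcript, with 8.77 CPM per kb for *Ptgds* and 5.64 CPM per kb for *Ptges*. That order depended on the length used, and turned back with the mean length of all annotated transcripts of each gene, to 8.82 CPM per kb for *Ptgds* and 15.4 CPM per kb for *Ptges*.

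Clearance genes were present as well. *Hpgd* (chromosome 8, 56294585 to 56321043, forward strand), the 15-hydroxyprostaglandin dehydrogenase that inactivates prostaglandins inside cells, had 17.4 CPM. Its 10.4 CPM per kb was the highest per kilobase of the RefSeq transcript among the 10 genes and exceeded 86.5% of genes with a length. With the mean annotated length *Hpgd* stood behind *Ptges* and *Ptgs1* (10.5 CPM per kb), and *Ptger3* stood above it when its highest entry was taken over the RefSeq length (11.6 CPM per kb). *Slco2a1* (chromosome 9, 102988712 to 103096002, forward strand), the carrier that takes prostaglandins up into cells, had 13.7 CPM. Its transcript is the longest of the 10, with 7122 nt. Per kilobase of that transcript *Slco2a1* fell to 1.92 CPM per kb, beside a median of 1.395 CPM per kb over all genes with a length. With the mean annotated length it lay at 3.26 CPM per kb.

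**Figure D2:**
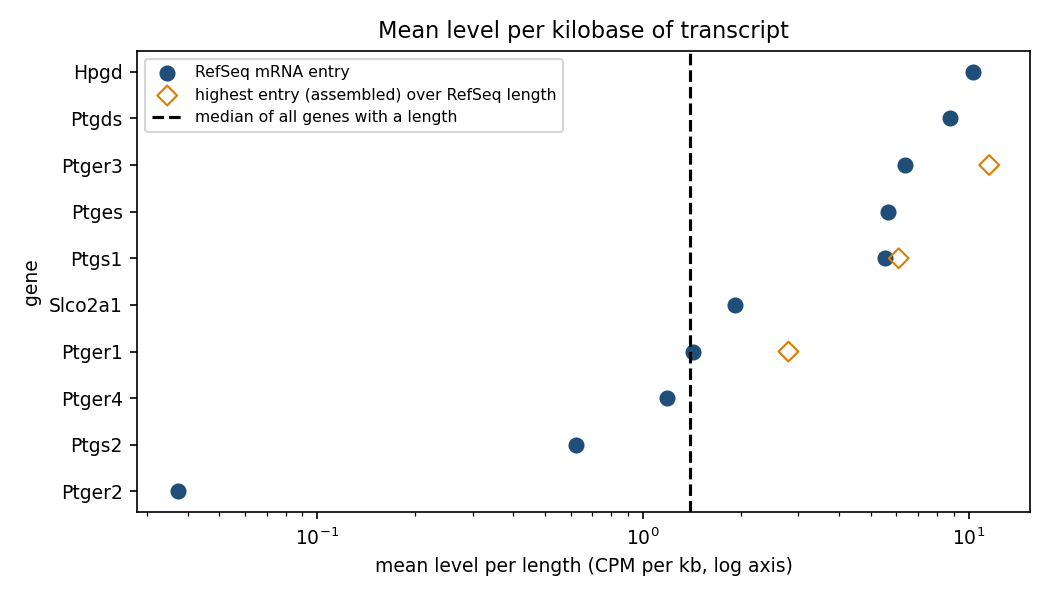
Mean level per kilobase of transcript, in CPM per kb on a logarithmic axis, with the 10 genes in order of their RefSeq mRNA entry (filled circles). Open diamonds give the highest entry, where that is an assembled one, over the RefSeq length, and the dashed line is the median of genes with a length (1.395 CPM per kb). *Hpgd*, *Ptgds*, *Ptger3*, *Ptges* and *Ptgs1* form an upper group from 5.53 to 10.4 CPM per kb.

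Among the E-type receptors the levels were far apart. *Ptger3* (EP3; chromosome 3, 157566892 to 157645888, forward strand) was the most abundant, with 36.4, 21.5 and 21.3 CPM for its 3 assembled entries and 20.1 CPM for its RefSeq entry. The highest entry thus stood 1.81-fold above the RefSeq entry, and its structure is not given in the table. *Ptger4* (EP4; chromosome 15, 5206661 to 5244187, reverse strand) had 3.94 and 3.42 CPM in its RefSeq entries, and overlaps *Ttc33* on the opposite strand. *Ptger2* (EP2; chromosome 14, 44988195 to 45003820, forward strand) had 0.138 CPM, which is 5.23 times the lowest level in the table, 0.0263 CPM, a value shared by 4617 entries. Of the E-type receptors that raise cyclic AMP, *Ptger4* was 31.8 times as abundant as *Ptger2* per kilobase of the RefSeq transcript. With the mean annotated length the ratio was 26.3. Both ratios rest on a *Ptger2* level near the lowest in the table and are imprecise.

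*Ptger1* (EP1; chromosome 8, 83666678 to 83672753, forward strand) has a level that is uncertain. The RefSeq entry of *Ptger1* had 6.71 CPM, and 2 assembled entries given the same symbol had 13.1 and 6.66 CPM. Identifiers of the table run along 1 strand of a chromosome and then along the other, since 71 of 26055 neighbouring RefSeq mRNA entries on the same chromosome (0.273%) differed in strand. The identifier of the *Ptger1* RefSeq entry stands among 20 nearest RefSeq entries of which 20 are on the forward strand. For both assembled entries all 20 nearest were on the reverse strand, opposite to that of the gene. The strand of assembled entries is not stated in the table, and whether reads were counted by strand is not given in the sources used here. Per length the RefSeq entry was used for *Ptger1*, as for every gene, except where the highest entry over the RefSeq length is named, which for *Ptger1* gives 2.80 CPM per kb. The median of the 10 genes above rests on its entry of 13.1 CPM.

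Set on the scale of CPM per kb of the RefSeq transcript, *Ptger3* lay at 6.38, *Ptger1* at 1.43, *Ptger4* at 1.19 and *Ptger2* at 0.0374. *Ptger3* made up 70.6% of the summed E-type receptor level on that scale. *Ptger1* and *Ptger4* differed by a ratio of 1.20, or 1.95 with the mean annotated length, and whether that exceeds the spread between animals cannot be told from means. Receptors of other prostanoids give the setting. *Ptgfr*, the receptor of prostaglandin F2α, was the second most abundant of all 9 prostanoid receptors with 2.98 CPM per kb. *Ptger3* was 2.14 times as high, a ratio not recomputed with the mean annotated length. These pairs of genes, and those below, were picked for comparison after the levels had been seen. The thromboxane receptor *Tbxa2r* lay at 1.15 CPM per kb, next to *Ptger4*, and the prostacyclin receptor *Ptgir* at 0.287 CPM per kb. Both prostaglandin D2 receptors, *Ptgdr* (0.0293 CPM) and *Gpr44* (0.0293 CPM), were near the lowest level in the table.

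**Figure D3:**
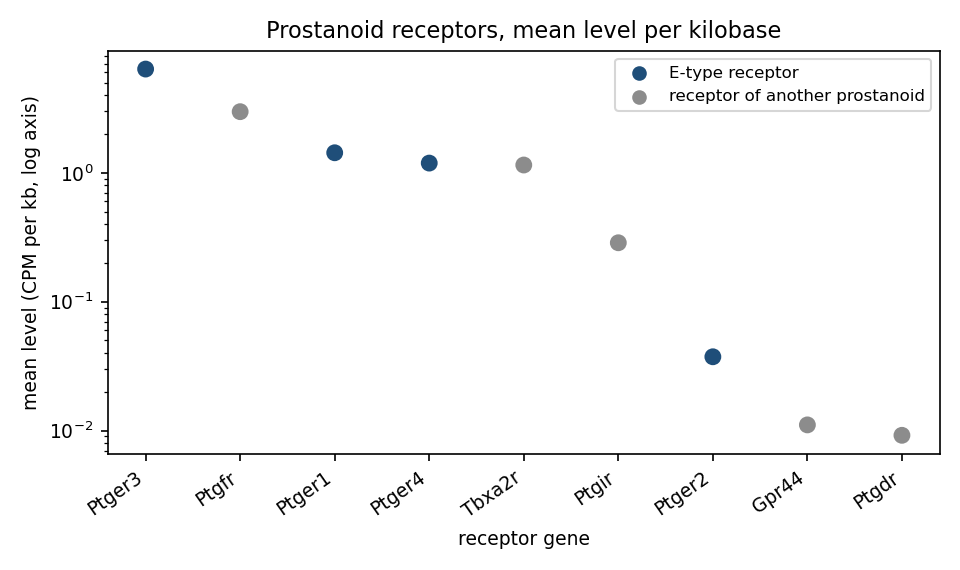
Mean level per kilobase of the RefSeq mRNA entry of 9 prostanoid receptor genes, in CPM per kb on a logarithmic axis and in descending order. Blue points are E-type receptors and grey points are receptors of other prostanoids. *Ptger3* stands highest at 6.38 CPM per kb, and *Ptger2* lies below 6 of the other receptors.

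The wider pathway was read from a list of 38 symbols, of which 37 had an entry. The symbol without one, *Ptgdr2*, is the current name of *Gpr44*. Of the 37 genes, 26 had at least 1 CPM, beside 55.9% of all gene symbols, and the median was 2.60 CPM. Of the phospholipases A2, 4 of 8 had at least 1 CPM, close to the share over all gene symbols. The highest was *Pla2g4a*, the cytosolic enzyme that supplies arachidonic acid to cyclooxygenases, with 21.1 CPM. *Pla2g2a* and *Pla2g10*, both secreted forms, were at the lowest level in the table.

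Of the other prostanoid synthases, 10 of 11 had at least 1 CPM, beside 55.9% of all gene symbols. *Cbr1*, a carbonyl reductase that can form prostaglandin F2α from prostaglandin E2 among many substrates, was the highest at 130.8 CPM. *Akr1b3*, the aldose reductase, reached 125.2 CPM. Among the enzymes of prostaglandin E2, *Ptges3*, also known as the HSP90 co-chaperone p23, had 29.3 CPM per kb. *Ptges* had 5.64 and *Ptges2* 2.34 CPM per kb, so *Ptges3* was 5.20 times as abundant as *Ptges*. For prostaglandin D2, *Ptgds* was 11.97 times as high per kilobase as *Hpgds*, the haematopoietic enzyme, which had 2.55 CPM. Neither of these ratios was recomputed with the mean annotated length, which moved *Ptges* from 5.64 to 15.4 CPM per kb. The thromboxane synthase *Tbxas1* had 2.51 CPM and the prostacyclin synthase *Ptgis* 2.07 CPM.

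All 3 listed genes of further breakdown and export had at least 1 CPM, as did 55.9% of all gene symbols. *Ptgr2*, a reductase acting on prostaglandins already oxidised by the product of *Hpgd*, had 16.0 CPM per kb against 10.4 for *Hpgd*. *Abcc4*, an efflux pump that exports prostaglandins, had 6.83 CPM per kb. Per kilobase of the RefSeq transcript it was 3.56 times as abundant as the uptake carrier *Slco2a1*, a ratio not recomputed with the mean annotated length.

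The neighbouring lipid pathways were read from the same list. In the lipoxygenase branch, which turns arachidonic acid into leukotrienes and related lipids, 3 of 6 genes had at least 1 CPM. That is close to the 55.9% over all gene symbols. *Lta4h*, the leukotriene A4 hydrolase, was the highest of them at 18.03 CPM, whereas *Alox5*, the enzyme that starts leukotriene synthesis, lay at 0.308 CPM. *Ptgfrn*, named for its interaction with the prostaglandin F2α receptor, had 25.3 CPM. *Faah*, which degrades fatty acid amides, had 13.6 CPM, and the lipid-activated nuclear receptors *Ppard* and *Pparg* had 9.90 and 4.51 CPM.

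**Figure D4:**
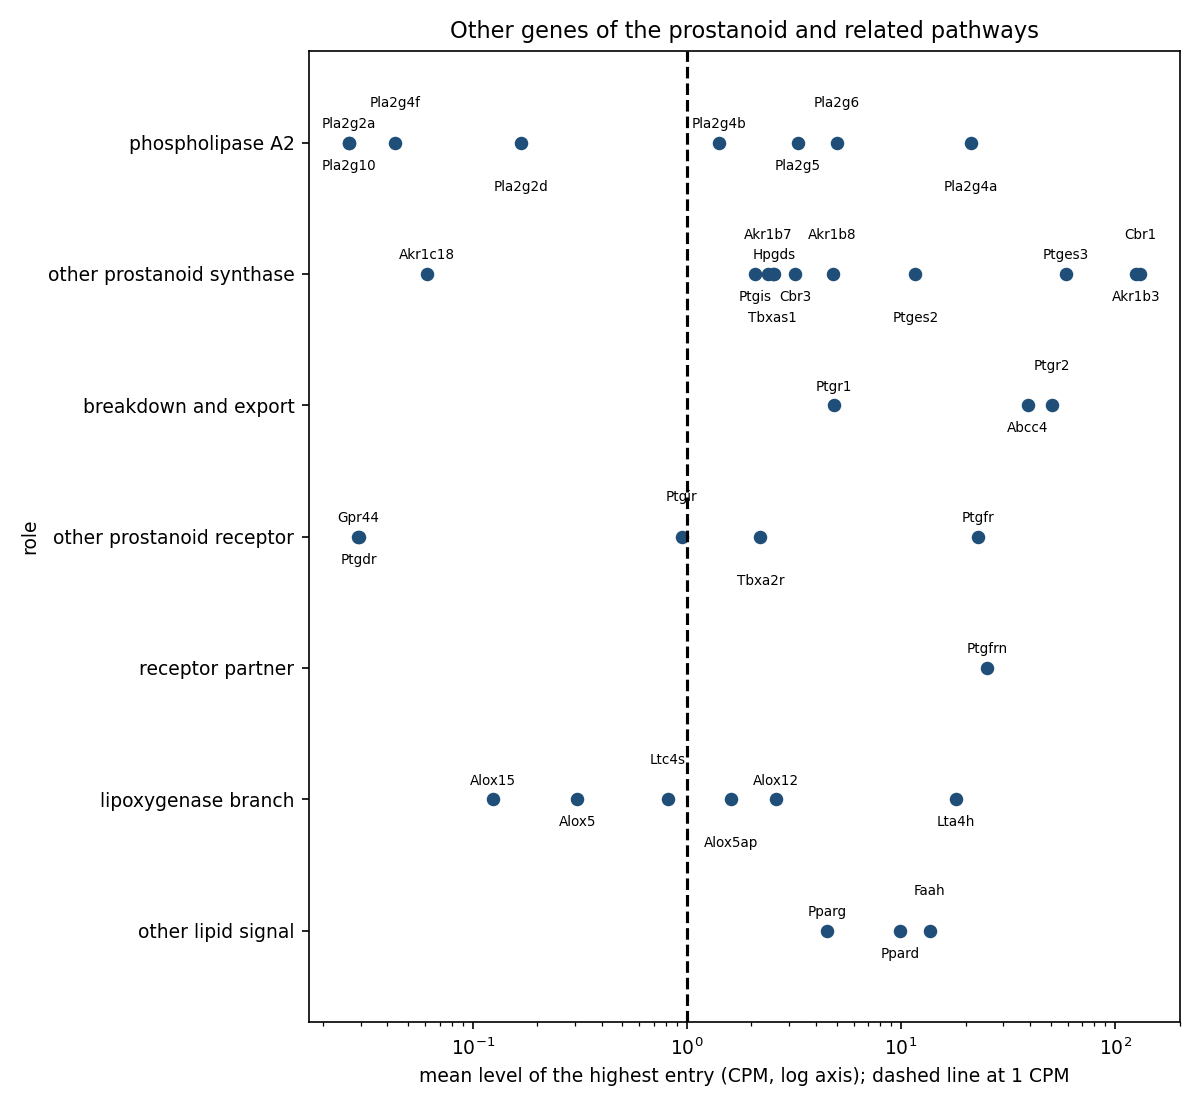
Mean level of the highest entry of 37 further genes of the prostanoid and related pathways, in CPM on a logarithmic axis, by role. Each point is 1 gene and the dashed line marks 1 CPM. *Cbr1* and *Akr1b3* lie furthest right, above 125 CPM, and 11 genes lie left of the line.

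Annotated 3′-UTRs of the RefSeq transcripts (GENCODE M21, GRCm38) were searched for the letters complementary to each seed. A match was counted when the forward strand of the transcript held the complement of bases 2 to 8, or that of bases 2 to 7 followed by A. The letters were GCACTTT and CACTTTA for miR-17-5p and miR-20a-5p, GCACCTT and CACCTTA for miR-18a-5p, TTTGCAC and TTGCACA for miR-19a-3p and miR-19b-3p, and GTGCAAT and TGCAATA for miR-92a-3p. Both forms of a family overlap where the full 8 letters are present. Of the 10 genes, 6 held at least 1 of the 8 motifs, beside 43.3% of 12403 3′-UTRs of genes whose RefSeq entry had at least 1 CPM. *Ptger2*, among the 6, lay below that level, so the sets are not alike. The 3′-UTRs of the members ran from 162 nt for *Ptgds* to 4572 nt for *Slco2a1*, against a median of 1030.0 nt over the genes searched. Only *Ptgds*, *Hpgd* (838 nt) and *Ptgs1* (921 nt) were shorter than that median, and the counts were not adjusted for length. A match is a stretch of letters and was not tested for binding.

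None of the 10 genes held GCACTTT, which 13.7% of all 3′-UTRs searched did. The shorter CACTTTA was present in *Ptgs2* and *Ptger1*, and in 12.4% of all. No motif was found in the annotated 3′-UTRs of *Ptger3* (1933 nt in the transcript with a table entry and 878 nt in another GENCODE transcript), *Ptges*, *Ptgds* or *Slco2a1*. For *Ptger3* this covers these windows alone, since the ends of the 3 assembled transcripts, all with higher levels than the RefSeq one, are not in the table. *Ptger3* is on the study's list of candidate targets of the cluster. That list combined TargetScan predictions with the study's RNA-Seq data from its *Pkd1* and *Pkd2* models, so it does not rest on sequence alone. The letter search used here was not compared with those predictions, so the lack of a match does not settle whether *Ptger3* is a target. All matches in the 10 genes are printed, because they carry the seed letters counted above, with the match in capitals and 10 bases on each side. The overlapping pair in *Ptger4* is given once.
Ptgs2, miR-17-5p and miR-20a-5p, chr1:150106999-150107005: ttctcgtggtCACTTTActacgagaaa
Ptger1, miR-17-5p and miR-20a-5p, chr8:83671158-83671164: gtaagtatccCACTTTAcaactacaga
Ptgs1, miR-18a-5p, chr2:36251664-36251670: tggttgcacaCACCTTAatcccagcac
Ptgs1, miR-19a-3p and miR-19b-3p, chr2:36251657-36251663: tagggtgtggTTGCACAcaccttaatc
Ptgs2, miR-19a-3p and miR-19b-3p, chr1:150106816-150106822: agtttttctgTTGCACAgtatgatgta
Hpgd, miR-19a-3p and miR-19b-3p, chr8:56320583-56320589: acttcgtgtgTTTGCACttcaaaagcg
Ptger2, miR-19a-3p and miR-19b-3p, chr14:45003644-45003650: ttctggttacTTTGCACctggaatttt
Ptgs2, miR-92a-3p, chr1:150106849-150106855: catctctcaaTGCAATAggtatcagtg
Ptger1, miR-92a-3p, chr8:83672424-83672430: ttgcaccgctGTGCAATtttgagcgat
Ptger4, miR-92a-3p, chr15:5234596-5234602: ataaaatcctGTGCAATagacatacat

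*Ptger4* lies on the reverse strand and the other 5 genes shown on the forward strand. Its site begins 30 nt after the stop codon and is followed by A, so both forms of the miR-92a-3p motif are met there. *Ptgs2* held 3 matches of the shorter form, to miR-19 at 1034 nt, miR-92a-3p at 1067 nt and miR-17-5p at 1217 nt after the stop codon. *Ptgs1* held adjoining short matches to miR-19 and miR-18a-5p, from 306 to 319 nt after the stop codon. Among the E-type receptors *Ptger1* and *Ptger4* held 2 matches each, *Ptger2* held 1, at 1649 nt of its 1825 nt, and *Ptger3* held 0.

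**Figure D5:**
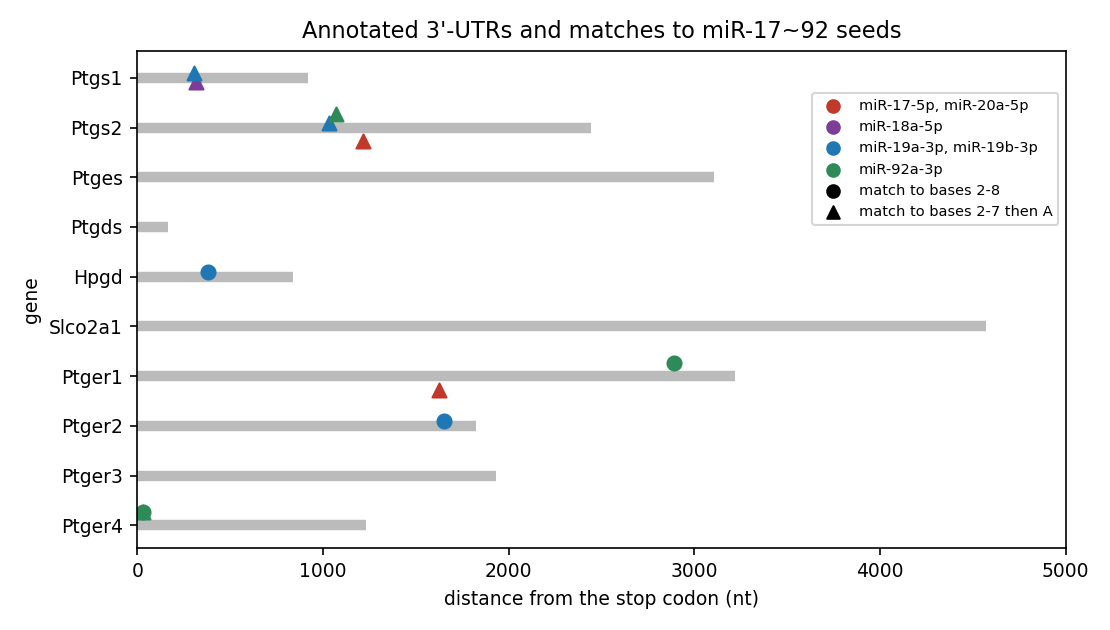
Annotated 3′-UTR of each of the 10 genes as a grey bar, from the stop codon (0) in nucleotides, with matches to the seeds of miR-17~92. Colour gives the seed family, circles are matches to bases 2 to 8, triangles are matches to bases 2 to 7 followed by A, and the vertical offset only separates families. Bars without symbols are *Ptges*, *Ptgds*, *Slco2a1* and *Ptger3*.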

How the data were processed

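Total RNA of whole kidneys from 3 SKO and 3 DKO mice was sequenced from stranded libraries. Per the labels and the submitters' processing notes, the authors aligned reads to mm10 with TopHat2 2.0.12, assembled transcripts with Cufflinks, counted with Subread 1.4.6 and compared groups with edgeR 3.2.4. The deposited values used here are edgeR's logCPM, which is 1 average level per transcript over both groups, given on a log2 scale. The other columns (log2 fold change, likelihood ratio statistic, p-value and adjusted p-value of the authors' comparison) were not used. The table has 0 further columns of single samples, so the planned quasi-likelihood test of counts could not be run, and depth per sample is unknown. Strand and overlap settings of the counting and the prior count are not given in the sources used here.

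Values were raised from log2 to CPM, and a gene was represented by its highest entry. Levels per length used the highest RefSeq mRNA entry and its transcript length in GENCODE M21 (20212 of 20470 genes). The code was tested on simulated data. The 10 genes and the lists were chosen with earlier results of these data known, and named genes were the members and those lists. The seed search, the gene pairs, the share of genes with near-equal entries and the check of *Ptger1* identifiers were chosen after seeing the data. Some values are not reported here.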

Additional observations from a re-analysis of the deposited data

How the results depend on the processing

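The median of the 10 genes was 13.4 CPM and moved to between 10.8 and 16.6 CPM when entries of a gene were summed, when their median was taken, when RefSeq entries alone were used or when the lowest level of the table was subtracted. At thresholds of 0.5 and 2 CPM, 9 of the 10 genes were still counted as present, and the count of pathway genes was 28 and 24 in place of 26. Of 40 recomputed levels of single genes, 9 moved by over 1.5 times, all in genes with several entries. Summing gave 46.4 CPM for *Ptgs1*, 26.5 for *Ptger1* and 99.4 for *Ptger3*, but entries share reads. The order per length changed for 7 genes with the mean annotated length (by at most 3 places). It changed for 6 when levels of RefSeq entries were not divided by length (by at most 4 places, *Ptgds* from 2 to 6). In an alternative added after seeing the data, the highest entry over the RefSeq length, it changed for 7 (by at most 2 places). The first place, held by *Hpgd*, went to *Ptges* with the mean annotated length and with RefSeq entries not divided by length. It went to *Ptger3* with the highest entry over the RefSeq length, while *Ptger2* was last under all of them. In plain CPM of the highest entry, *Ptger3* led and *Ptges* came next. The planned refits (DESeq2, no filter on counts, each replicate omitted in turn) need counts of single samples and were not run. No paired analysis was possible because the columns carry no replicate. Depth is unknown, so no counting interval can be given for any level, and *Ptger2* in particular has no stated precision.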
